A study of Homo sapiens with 8 samples.

Results

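Single-exon transcripts that lay just past the 3' ends of genes were examined in RNA-seq data of HCC (hepatocellular carcinoma) cells treated with sodium pentaborate pentahydrate (NaB), curcumin (Cur) and piperine (Pip). Such a transcript was taken when it had 1 exon, lay on chromosomes 1 to 22 or X, overlapped no GENCODE protein_coding or lncRNA gene and overlapped the 10 kb past the 3' end of such a gene. The rule found 6346 of them among 57798 single-exon transcripts and 236633 assembled transcripts of 8 libraries, and merging overlapping ones gave 3214 loci past 2510 genes. They are called downstream transcripts here, and the gene whose 3' end was nearest is called the upstream gene.

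The libraries came from HepG2 cells and from cells labelled Hep3B, both human HCC cell lines and both labelled wild type, and the Cur and Pip stocks were made in DMSO, which the sources do not name for the untreated controls. Each line was sampled after 48 h untreated (control), with NaB (2500 µM for HepG2 and 1700 µM for Hep3B), with Cur at 30 µM together with Pip at 6 µM (Cur/Pip), or with all 3 agents at these doses (combination treatment). There was 1 library per condition, so a value of one treatment in one line has no replicate. The fragments behind the assembled transcripts, estimated from coverage and length, ranged from 25.6 to 35.7 M per library. An FPKM (fragments per kilobase of transcript, scaled to the depth of the library) of 1 or more was reached by 6 to 8 of 8 hepatocyte markers in the HepG2 libraries and by 0 to 1 in the Hep3B-labelled libraries, where 3 of 4 fibroblast markers reached it. The values of the second line are therefore given as those of libraries labelled Hep3B. ALB, which encodes serum albumin, and AFP, which encodes alpha-fetoprotein, were listed at 0 in the HepG2 control and at 356 FPKM or more in the other HepG2 libraries, so a gene listed at 0 may be one that was not assembled.

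Most protein-coding transcripts end where the nascent RNA is cut shortly after a polyadenylation signal, whose commonest form is AATAAA, and the polymerase stops some way further on. RNA transcribed between the cut and the stop is normally degraded quickly. When cutting or stopping is delayed, as is known for cells under heat, osmotic or oxidative stress, readthrough RNA can be found for several kilobases past a gene, on the strand of that gene. A single-exon transcript in this position can also be an unannotated last exon, an enhancer or promoter RNA, a pseudogene or a small RNA, and the assembly does not tell these apart.

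The sequences at the 3' ends of 5 loci are shown first because they show which loci ended at a polyadenylation signal. Each run holds the last 150 bases of the merged locus on the strand of the upstream gene, from GRCh38, with AATAAA in capitals. The first locus lay past GADD45B, described below, and was assembled in every library with Cur/Pip, with or without NaB, and in no other. That past USP6NL, which encodes a GTPase-activating protein for Rab proteins, was found in all 8 libraries. The last 3, found in 7 libraries each, were taken from the most recurrent same-strand loci that had the signal in their last 50 bases, were at least 300 nt long and covered no other annotated gene.
GADD45B, chr19:2484224-2484373, plus strand: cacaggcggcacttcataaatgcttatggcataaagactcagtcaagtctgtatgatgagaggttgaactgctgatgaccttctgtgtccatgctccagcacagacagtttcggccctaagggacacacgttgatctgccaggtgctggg
USP6NL, chr10:11455569-11455718, minus strand: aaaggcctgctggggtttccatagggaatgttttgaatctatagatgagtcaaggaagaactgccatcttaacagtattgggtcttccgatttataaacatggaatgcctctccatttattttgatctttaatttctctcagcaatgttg
SETSIP, chr1:92073681-92073830, minus strand: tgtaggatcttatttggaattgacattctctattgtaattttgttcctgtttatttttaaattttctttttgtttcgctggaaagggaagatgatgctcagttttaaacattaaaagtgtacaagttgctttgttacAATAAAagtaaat
CPLANE1, chr5:37098809-37098958, minus strand: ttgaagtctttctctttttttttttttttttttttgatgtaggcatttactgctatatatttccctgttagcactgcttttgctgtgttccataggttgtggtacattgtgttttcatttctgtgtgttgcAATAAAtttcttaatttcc
BOK, chr2:241579106-241579255, plus strand: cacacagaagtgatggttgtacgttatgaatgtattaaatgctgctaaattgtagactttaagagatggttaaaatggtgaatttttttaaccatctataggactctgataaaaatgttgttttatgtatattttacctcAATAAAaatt

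Neither of the first 2 runs holds AATAAA. In the last 3 runs the signal began 13 bases from the end of the SETSIP locus, 19 bases from that of the CPLANE1 locus and 10 bases from that of the BOK locus. CPLANE1 encodes a protein of cilium formation and BOK a pro-apoptotic member of the BCL2 family. SETSIP resembles SET, so reads there may be shared with another gene.

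The GADD45B locus had 0 AATAAA hexamers over its 4688 bases, and the USP6NL locus had 0 over 4414 bases. Over all downstream loci, AATAAA was in the last 50 bases of 7.81% (251 of 3214), against 58.9% of annotated protein_coding genes and 4.06% of all 50-base tiles of the same gene-free sequence. The hexamer was searched on the strand of the transcript, and its reverse complement TTTATT was found in 4.20% of the loci and 4.07% of the tiles. Most merged downstream loci thus ended where the reference shows no AATAAA, at a rate closer to the tiles than to annotated gene ends. The share was 5.66% in the 1960 loci found in 1 library and 16.7% in the 335 found in at least 4, and it was 8.62% on the strand of the gene and 5.75% on the other strand. It was 13.2% in exonic single-exon loci, 10.3% in those before a gene's start alone, 6.79% in intronic ones and 9.99% in those over 10 kb from genes. Exonic loci too thus lay far below annotated gene ends by this measure. The median GC content was 47.0% in downstream loci, 45.1% in loci over 10 kb from genes and 44.7% in intronic loci. A run of 10 or more A on the transcript's strand was in 39.2% of the downstream loci and a run of 10 or more T in 20.6%, and the order was the same in the other 4 classes. These are descriptions of the reference under the merged loci, whose ends differ between libraries.

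Downstream transcripts were more numerous in every treated library than in the control of its line. HepG2 held 465 in the control, 781 after NaB, 1226 after Cur/Pip and 1128 after the combination treatment. The Hep3B-labelled libraries held 391, 487, 693 and 1175 in the same order. The number was thus 1.68, 2.64 and 2.43 times that of the control in HepG2 and 1.25, 1.77 and 3.01 times in the Hep3B-labelled libraries. The combination library was the highest of the 4 among the Hep3B-labelled ones, and in HepG2 its order against Cur/Pip depended on depth, as given below.

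**Figure D1:**
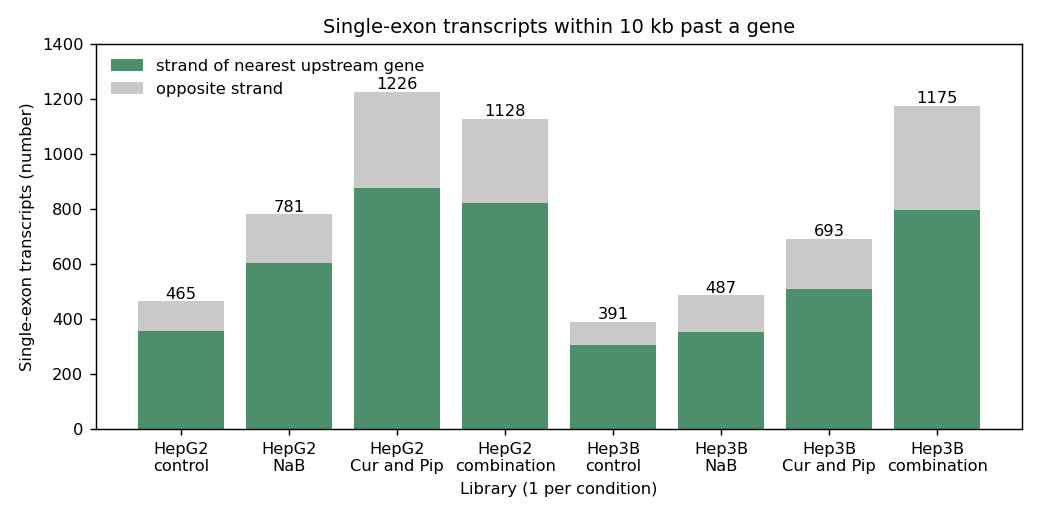
Number of downstream single-exon transcripts in each of the 8 libraries, split by whether they lay on the strand of the nearest upstream gene (green) or on the opposite strand (grey). The 4 libraries with Cur/Pip hold 693 to 1226 and the 4 without hold 391 to 781, and each treated library stands above its control.

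Over the factorial layout, the libraries with Cur/Pip had 2.01 times as many downstream transcripts as those without (1.95-fold in HepG2 and 2.07-fold in the Hep3B-labelled libraries). The exact permutation test within lines, two-sided, gave p = 0.0556, which is the smallest that its 36 arrangements can give, so the design cannot pass 0.05; adjusted over the 3 tests of this kind it was 0.167. With NaB present against absent the number was 1.34 times as high, with an exact permutation p of 0.389 (adjusted 0.584). The 4 libraries with Cur/Pip, 693 to 1226, overlapped the 4 without, 391 to 781, because of the HepG2 library with NaB. The HepG2 combination library was the shallowest of the 8 and the Hep3B-labelled combination library the deepest. Divided by depth, the number over the control was 3.14-fold in the first and 2.82-fold in the second, and 2.88-fold in HepG2 after Cur/Pip, so that in HepG2 the combination treatment then stood above Cur/Pip. At the depth of the shallowest library, 613 downstream transcripts in HepG2 after Cur/Pip and 711 after the combination treatment had at least 20 fragments.

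The other single-exon transcripts were also more numerous after treatment, and those outside exons by more than the downstream ones. Intronic single-exon transcripts were 1.79-, 4.37- and 3.86-fold the control in HepG2 and 1.63-, 2.14- and 3.35-fold in the Hep3B-labelled libraries, after NaB, Cur/Pip, and the combination treatment. Those over 10 kb from any gene were 1.90-, 3.85- and 3.35-fold and 1.72-, 2.40- and 3.44-fold. The fold of downstream transcripts was below those of the intronic, upstream and distant classes in all 6 comparisons and above that of the exonic class in 5 of 6, with the Hep3B-labelled libraries after NaB as the exception (1.246- against 1.250-fold).

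**Figure D2:**
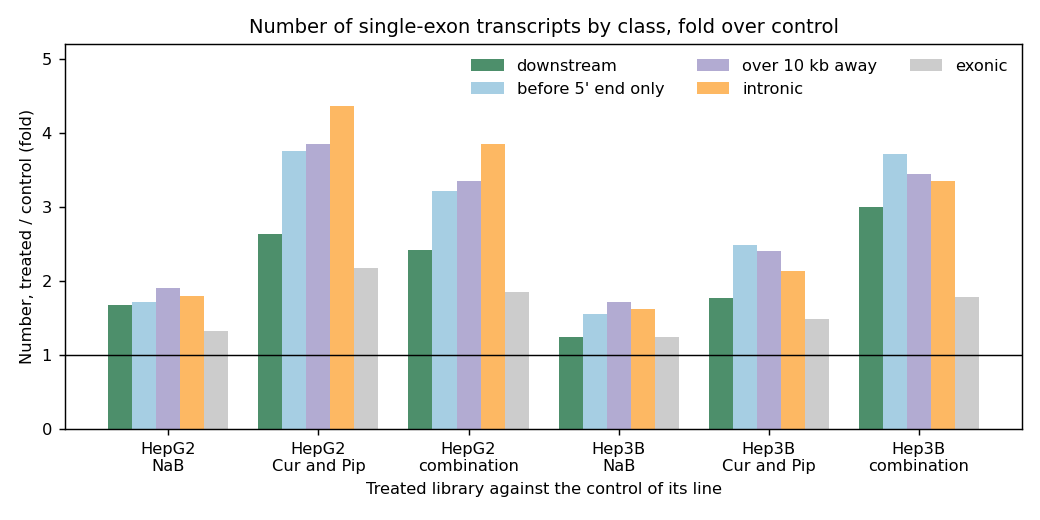
Fold of the number of single-exon transcripts over the control of the line, for downstream transcripts (green) and the 4 other classes, in each of the 6 treated libraries. The horizontal line is no change, and downstream transcripts lie below the intronic, upstream and distant classes in every library, at most 3.01-fold.

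As a share of all single-exon transcripts, downstream transcripts stood at 9.75 to 13.2% in the 8 libraries. The share was 11.0% (95% Clopper-Pearson interval 10.1 to 12.02) in the HepG2 control, 12.1% (11.3 to 12.9) after NaB, 9.89% (9.37 to 10.4) after Cur/Pip and 10.4% (9.84 to 11.0) after the combination treatment. It was 10.8% (9.81 to 11.9), 9.75% (8.94 to 10.6), 10.9% (10.1 to 11.7) and 13.2% (12.5 to 13.9) in the Hep3B-labelled libraries. The share moved in opposite directions in the lines after each treatment, but by only 0.06 points in the Hep3B-labelled libraries after Cur/Pip. Only in the combination library labelled Hep3B did the interval lie clear of that of its control. With Cur/Pip present against absent the share differed by 0.167 percentage points, with an exact permutation p of 0.889. This difference ranged from -0.446 to 1.18 points under other settings, and it was negative with a window of 5 kb (-0.28) and when any of 3 libraries was left out. Among single-exon transcripts clear of exons the share was below the control in all 6 treated libraries: 24.0% in the control against 22.7, 16.4 and 17.1% in HepG2, and 24.5% against 19.8, 20.5 and 22.3% in the Hep3B-labelled libraries. These intervals cover counting error only.

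Within the 10 kb, downstream transcripts were densest next to the gene and thinned with distance. In the first kilobase there were 6.40 per Mb of gene-free sequence in the HepG2 control, 8.66 after NaB, 14.4 after Cur/Pip and 13.3 after the combination treatment, and in the tenth kilobase 0.67, 2.16, 4.17 and 3.05. The Hep3B-labelled libraries had 5.13, 5.83, 8.47 and 12.2 per Mb in the first and 0.819, 1.12, 1.86 and 3.35 in the tenth kilobase. The ratio of the first to the tenth was highest in the controls, 9.55 in HepG2 and 6.26 in that labelled Hep3B, and 3.44 to 5.23 in the treated libraries; the HepG2 control had only 9 transcripts in the tenth kilobase. The median distance was 2085 nt in the HepG2 control and 2594 to 2683 nt after treatment, and 2302 nt in the control labelled Hep3B and 2480 to 3039 nt after treatment. The treated libraries thus held relatively more transcripts further from the gene.

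**Figure D3:**
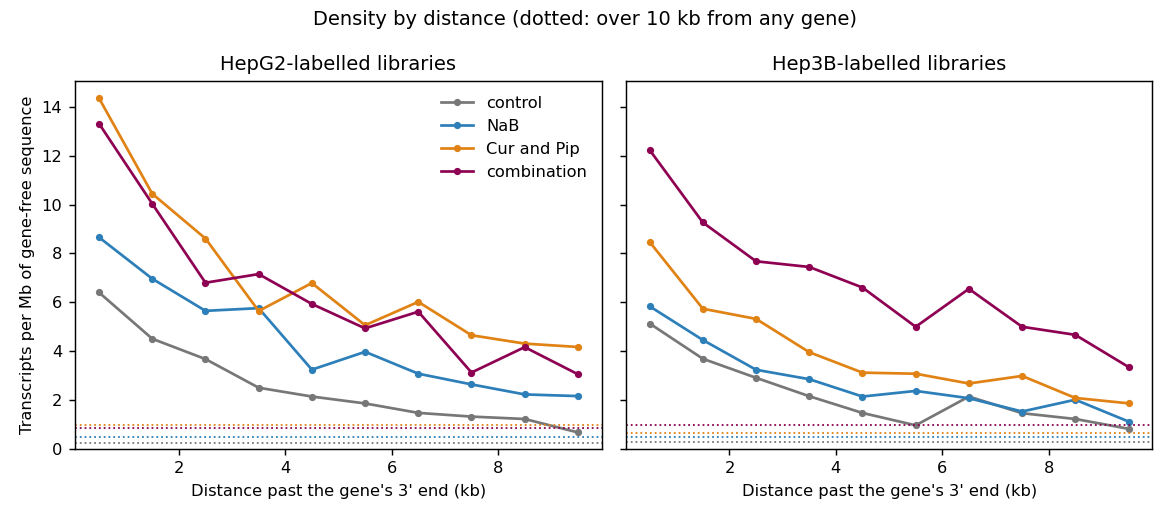
Downstream transcripts per Mb of gene-free sequence in 1 kb bins past the 3' end of the nearest upstream gene, for the 4 libraries of each line, with dotted lines for sequence over 10 kb from any gene. All 8 curves are lower at the last bin than at the first, with small rises between, from 5.13 to 14.4 per Mb in the first bin to 0.67 to 4.17 in the tenth.

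The density over the whole 165 Mb of downstream space was 2.37 to 7.43 per Mb, 6.17 to 11.1 times that over 10 kb from any gene and 1.52 to 2.19 times that of sequence within 10 kb before a gene's start alone. Both ratios were higher in the control than in each treated library of its line. In the first kilobase after Cur/Pip in HepG2, sequence before gene starts held more single-exon transcripts per Mb (15.7) than sequence past gene ends (14.4). Of the downstream transcripts, 3092 (of 6346) also overlapped the 10 kb before the start of another gene, and what share of them began at that start was not tested.

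The strand, which the selection did not use, followed the upstream gene. In the controls 77.0% (72.9 to 80.7) of the downstream transcripts in HepG2 and 78.8% in the Hep3B-labelled library lay on the strand of the nearest upstream gene. The share was 77.3, 71.6 and 73.0% in HepG2 after NaB, Cur/Pip and the combination treatment, and 72.5, 73.7 and 67.9% in the Hep3B-labelled libraries. Over all libraries it was 79.3% in the first kilobase, 78.3% in the fourth and 60.2% in the tenth. For comparison, 86.2% of single-exon transcripts over exons and 76.0% of those in introns lay on the strand of the gene, and 32.7 to 36.5% of those before a gene's start alone did. The near edge of transcripts on the strand of the gene lay closer to its 3' end (median 2302 nt) than that of transcripts on the opposite strand (3726 nt). The number on the gene's strand was 358 in the control and 604, 878 and 823 after treatment in HepG2, and 308 against 353, 511 and 798 in the Hep3B-labelled libraries.

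Downstream transcripts were short and faint. Their level is given in FPKM, and the median was 0.411 to 0.604 FPKM per library, their median length 973 to 1531 nt, and a median of 20.9 to 24.7 fragments supported each one. The median length was lower in each treated library than in its control, and the median FPKM higher. With so few fragments, a downstream RNA not listed in a library may have lain below detection there. In some cases another assembled transcript covered it, as given below, so an unlisted RNA is not shown to be absent. The upper tail held other RNAs: all 39 downstream transcripts at 100 FPKM or more were under 300 nt, a length at which FPKM is uncertain with these reads, and 27 of them overlapped a gene of another annotated type. Of all 6346, 12.8% overlapped such a gene, 419 of them a processed pseudogene.

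The upstream genes were 1743 protein_coding and 767 lncRNA genes, 334 to 975 in a library. When the gene and its downstream transcript were on the same strand and the gene was assembled, the downstream transcript had a median of 2.84 to 4.37% of the gene's FPKM. Only 1.61 to 5.47% of these pairs had the downstream transcript above the gene. For 23.8 to 40.5% of the downstream transcripts the nearest upstream gene was listed at 0 in the same library, with the lowest share in the control labelled Hep3B and the highest in the combination library of that line.

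In percentage points, the share of genes with a downstream transcript differed most from the control among genes of high level with Cur/Pip in HepG2 and with the combination treatment in both lines. Among genes at 100 FPKM or more with at least 1 kb of gene-free sequence past them, 2.88% had a downstream transcript in the HepG2 control, 5.87% after NaB, 13.2% after Cur/Pip and 12.5% after the combination treatment. In the Hep3B-labelled libraries the shares were 2.97, 3.81, 4.55 and 14.3%. Among genes at 1 to 10 FPKM the shares were 3.28, 4.86, 6.13 and 5.77% in HepG2, and 2.70, 2.60, 4.13 and 5.38% in the Hep3B-labelled libraries. Among genes at 10 to 100 FPKM they were 3.76, 6.20, 9.37 and 9.07% in HepG2 and 3.63, 4.47, 5.63 and 8.18% in the Hep3B-labelled libraries. Genes listed at 0 had shares of 0.712, 1.25, 2.21 and 2.11% in HepG2 and 0.528, 0.869, 1.18 and 2.58% in the Hep3B-labelled libraries, so they were above their control in every treated library too. The genes of 100 FPKM or more stood below those of 10 to 100 FPKM in both controls and above them in those 3 treated libraries. The class of 100 FPKM or more holds 383 to 573 genes in a library, and its libraries have no replicate.

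**Figure D4:**
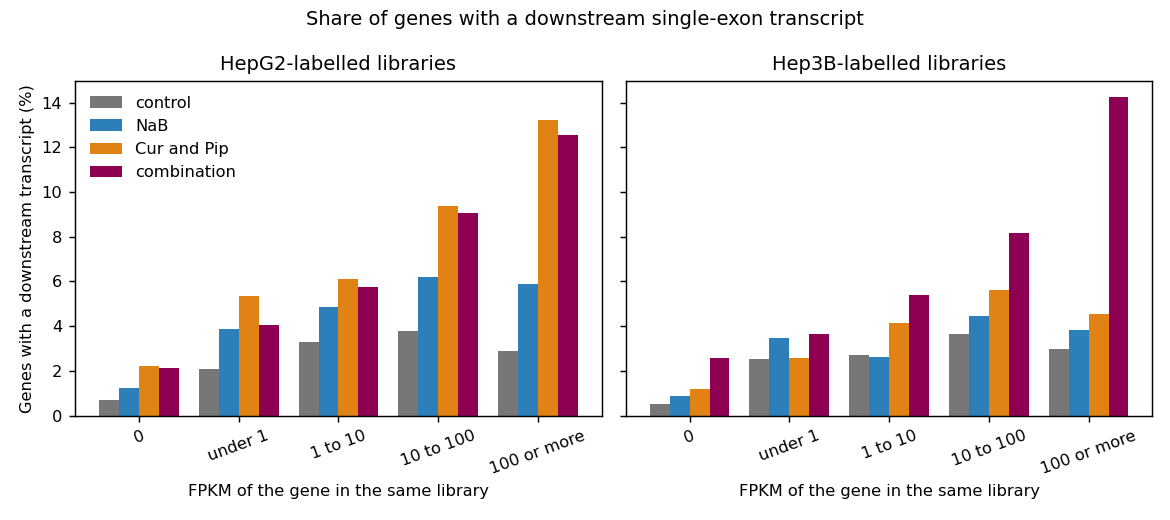
Percentage of genes with a downstream transcript by the FPKM of the gene in the same library, for genes with at least 1 kb of gene-free sequence past them, in the 4 libraries of each line. The class of 100 FPKM or more reaches 13.2 and 12.5% in HepG2 with Cur/Pip and with the combination treatment and 14.3% in the combination library labelled Hep3B, against 2.88 and 2.97% in the controls.

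The genes that gained a downstream transcript changed little themselves by their median. In HepG2, 317, 561 and 527 genes had a same-strand downstream transcript after NaB, Cur/Pip and the combination treatment and none in the control, and 178, 272 and 511 did in the Hep3B-labelled libraries. The median log2 change of these genes' own FPKM (log2 of FPKM + 1) was 0.04, 0.22 and 0.11 in HepG2 and 0.01, 0.02 and -0.03 in the Hep3B-labelled libraries, beside 0.003, -0.03 and -0.05 and -0.18, -0.03 and -0.11 over all genes compared. In HepG2 after Cur/Pip, 47 of the 394 gaining genes with a measured level were higher by a log2 change over 1.5 and 33 lower by over 1.5. Over all genes compared there, 8.05% were higher and 10.5% lower by that much. Genes that lost their downstream transcript had medians of -0.15 to -0.53 in the 6 comparisons. Assembled transcripts that ran on from a gene over 1 kb past its annotated end were found for 3.21 to 4.55% of the assembled genes. The share was 3.81% in the HepG2 control and 4.55% after the combination treatment, and 3.59% and 4.28% in the Hep3B-labelled libraries, while after NaB and after Cur/Pip it moved in opposite directions in the lines.

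Since readthrough is known for cells under stress, stress-inducible genes were looked at as a group. Of a list of 23 genes, mostly of this kind with GAPDH and ACTB as housekeeping genes, 19 had at least 1 kb of gene-free sequence past them, and 10 had a downstream transcript in some library, beside 10.6% of all genes with room past them. None of the 23 had one in either control or in HepG2 after NaB, and 1 had one in the Hep3B-labelled library after NaB. With Cur/Pip, 3 did in HepG2 and 3 in the Hep3B-labelled library; with the combination treatment, 6 and 9 did. The share over all genes with room was 1.61% and 1.41% in the controls, 2.66% and 1.75% after NaB, 4.11% and 2.40% with Cur/Pip and 3.86% and 4.06% with the combination treatment. The counts take either strand. IER2, whose transcripts lay on the opposite strand, is the 1 gene after NaB. It is also among the 3 of the Hep3B-labelled library with Cur/Pip and among the 6 and the 9, and the 9 include ACTB. The list holds many genes of high FPKM, a class with larger shares. Over all genes at 100 FPKM or more these were 13.2% and 4.55% with Cur/Pip and 12.5% and 14.25% with the combination treatment. There is no test of the difference.

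**Figure D5:**
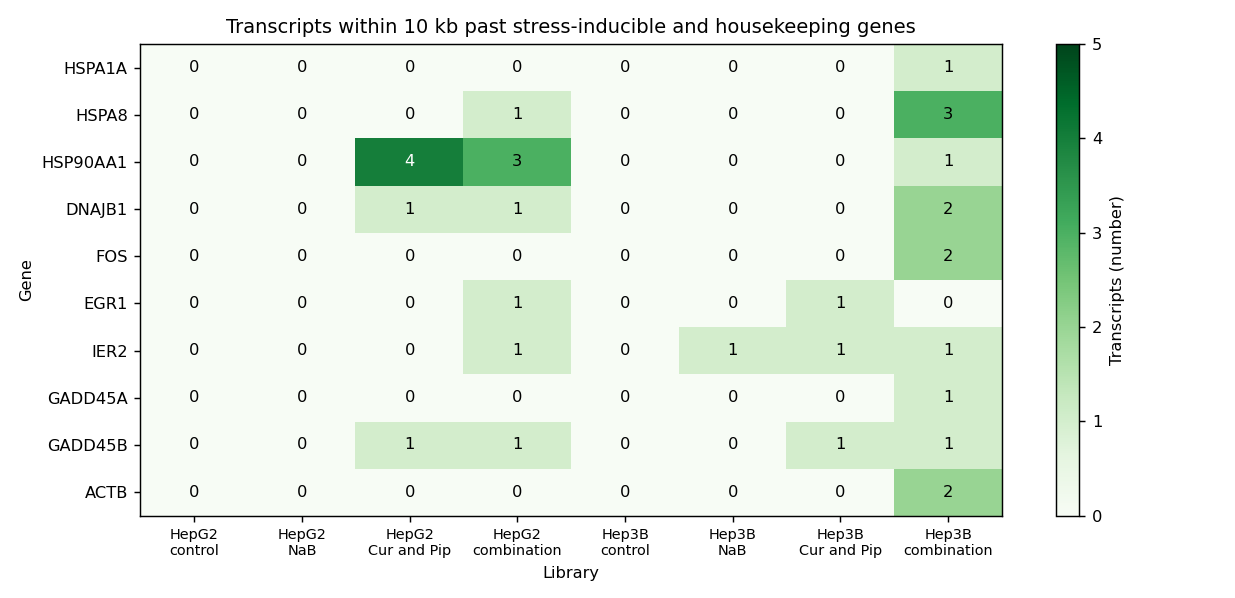
Number of downstream transcripts past each of the 10 genes of the stress list that had any (rows) in the 8 libraries (columns), with darker green for more. HSP90AA1 has 4, 3 and 1 in HepG2 with Cur/Pip, HepG2 with the combination treatment and the combination library labelled Hep3B, and both control columns hold 0.

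GADD45B, a gene of the DNA damage and growth arrest response, had 1 same-strand locus from 1427 nt past its end (chr19:2479686-2484373, plus strand), which ended in the first run shown above. It was listed in the 4 libraries with Cur/Pip and in none of the other 4. Its level was 0.556 FPM (fragments scaled to depth, which is FPKM times length in kb) in HepG2 with Cur/Pip and 0.896 with the combination treatment, and 0.766 and 2.66 in the Hep3B-labelled libraries. GADD45B itself was also highest in these libraries within each line, at 7.68, 6.41, 80.5 and 179 FPKM in HepG2 (control, NaB, Cur/Pip, combination treatment) and at 15.7, 18.1, 45.3 and 217 FPKM in the Hep3B-labelled libraries.

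HSP90AA1, which encodes the inducible cytosolic chaperone HSP90α, had 8 downstream transcripts, all on its strand, the nearest 680 nt past its end. Their levels summed to 7.84 FPM in HepG2 with Cur/Pip, 4.05 with the combination treatment and 0.407 in the combination library labelled Hep3B, and none was listed in the other 5 libraries. The gene itself was listed at similar levels where they were present and absent: 562, 387, 552 and 612 FPKM in HepG2 and 620, 667, 740 and 771 FPKM in the Hep3B-labelled libraries. In this it differed from GADD45B.

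DNAJB1, a co-chaperone of HSP70, had 1 downstream transcript in HepG2 with Cur/Pip, 1 with the combination treatment and 2 in the combination library labelled Hep3B (0.764, 0.588 and 1.72 FPM). HSPA8, the constitutive HSP70, had 1 in HepG2 (0.621 FPM) and 3 in the Hep3B-labelled library (2.40), both with the combination treatment. EGR1, an immediate-early transcription factor, had 1 in HepG2 with the combination treatment and 1 in the Hep3B-labelled library with Cur/Pip. All of these lay on the strand of the gene. The 4 transcripts past IER2 were on the opposite strand and overlapped RPL12P42, an annotated pseudogene. HSPA1A, FOS, GADD45A and ACTB, named after their values were seen, had 1 or 2 each, all on the strand of the gene. HSPA1A was listed at 0 in 7 of 8 libraries and has a near-identical neighbour, HSPA1B, so its own level is uncertain.

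Most downstream loci were found once. Of 3214 loci, 1960 (61.0%) were in 1 library, 623 in 2, 335 in at least 4 and 13 in all 8. Intronic single-exon loci were found once in 68.5%, those over 10 kb from genes in 59.9% and exonic ones in 57.9%. The median distance to the gene was 2400, 2148, 1847, 1620 and 1750 nt for loci in 1 to 5 libraries, 940 nt for the 60 in 6, 1118 nt for the 34 in 7 and 5864 nt for the 13 in all 8, so those 13 lay furthest. In a library where a locus was not listed, another assembled transcript covered it in 8.88% of the cases, and in 16.2% of the cases (13.5 to 19.3% per library) for the loci found in at least 4 libraries. The HepG2 control shared 49.4% of its 411 loci with HepG2 after NaB and 21.7% with the control labelled Hep3B. These 2 controls shared 89 loci, which was 25.3% of the 352 of the latter.

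Of the 13 loci found in all 8 libraries, 9 overlapped an annotated gene of another type. The 5 with the highest mean level were among these 9. The locus past CILK1 (chr6:52995624-52995935, plus strand, opposite to CILK1) covered RN7SK, the small nuclear RNA 7SK that restrains the elongation factor P-TEFb. It was at 19.7, 6.75, 23.4 and 17.0 FPM in HepG2 and at 27.9, 10.9, 53.6 and 104 in the Hep3B-labelled libraries, lowest after NaB in both lines. The others lay past SF3B1, PEX6, NAA16 and SPEN-AS1 and covered processed pseudogenes, where reads may be shared with the parent genes. NPM1P46, past SF3B1, ranged from 1.12 to 61.8 FPM with no order by treatment.

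The 4 without another annotation, named after their values were seen, lay past USP6NL, THOC5, OSBPL10 and ZNF786, all on the strand of the gene. The USP6NL locus began 528 nt past the gene and spanned 4414 nt, and its end is shown above. It was at 0.489 to 2.06 FPM in HepG2, lowest with Cur/Pip, and at 1.31 to 2.19 in the Hep3B-labelled libraries, lowest after NaB. The locus past THOC5, a subunit of the mRNA export complex THO, began 1302 nt past the gene and was at 1.10 to 2.58 in HepG2 and at 1.37 to 2.81 in the Hep3B-labelled libraries, lowest in the same conditions. Neither locus separated treated from control libraries.

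More loci were particular in their listing to libraries with Cur/Pip than to those without. In the 4 libraries with Cur/Pip and no other, 13 loci were listed (0.404%, beside 0.296% of all classes), and in the 4 without and no other, 1 was (0.0311%, beside 0.0340%). In at least 2 of the 4 and none of the others, 388 (12.1% of 3214) were listed with and 76 without. The same count over single-exon loci of all classes was 3369 of 29380 (11.5%) with and 631 without, so the downstream loci were near the background of all classes. With NaB and no other 1 locus was listed (0.0311%, beside 0.0511% of all classes), in all 6 treated libraries and neither control 7 (0.218%, beside 0.242%), and in both controls and no treated library 2 (0.0622%, beside 0.129%).

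Of the 13 loci, the 5 with the highest mean level lay past CBY3, PPP1R35-AS1, MED18, LINC02468 and H3-3B. That past CBY3 (chr5:179675935-179678508, 52 nt past the gene and on its strand) was at 5.35 and 1.15 FPM in HepG2 with Cur/Pip and with the combination treatment, and at 0.509 and 1.95 in the Hep3B-labelled libraries. That past PPP1R35-AS1 (chr7:100438854-100443564, same strand) was at 0.797 and 4.17 in HepG2 and at 0.377 and 2.68 in the Hep3B-labelled libraries. CBY3 was listed in 1 of the 8 libraries and PPP1R35-AS1 in none. Of these 5 loci, all but that past MED18 also overlapped the 10 kb before the start of another gene.

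The locus past H3-3B, a gene of the replacement histone H3.3, spanned 6270 nt from 2693 nt past the gene on its strand. It was at 0.335 and 0.657 FPM in HepG2 with Cur/Pip and with the combination treatment, and at 0.644 and 4.28 in the Hep3B-labelled libraries, with 0 in the other 4. H3-3B itself was at 389, 449, 423 and 311 FPKM in HepG2 and at 111, 328, 205 and 298 FPKM in the Hep3B-labelled libraries, so its level did not separate these libraries. The locus past MED18, a Mediator subunit, was on the opposite strand 9715 nt away, at 1.11, 1.32, 3.04 and 2.37. That past LINC02468 was on the strand of its gene, at 1.48, 1.31, 1.10 and 3.50, and LINC02468 was listed at 0 in all 8 libraries.

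The single locus listed in the 4 libraries with NaB and in no other lay 7452 nt past SLC30A9, a zinc transporter gene, on its strand. It was at 0.766 and 0.927 FPM in HepG2 (NaB, combination treatment) and 0.527 and 0.605 in the Hep3B-labelled libraries. The 5 strongest loci of the 6 treated libraries alone lay past ZNF398, NOLC1, F2R, TGOLN2 and SDR42E2 and were 378 to 635 nt long. Those past NOLC1 and F2R were on the strand of the gene. The strongest, past ZNF398, covered an annotated processed pseudogene, where reads may be shared with its parent gene. That past F2R, which encodes the thrombin receptor PAR1, was at 1.01, 8.55 and 5.14 in HepG2 after NaB, Cur/Pip and the combination treatment, and at 0.895, 3.61 and 2.70 in the Hep3B-labelled libraries. F2R itself was at 11.0 FPKM or more in HepG2 and at 0 to 0.883 in the Hep3B-labelled libraries, so the gene was higher in HepG2, while the locus was listed after every treatment in both lines. That past NOLC1, a nucleolar phosphoprotein gene, was at 1.06, 5.24 and 5.33 and at 2.53, 5.32 and 2.46.

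In the 4 libraries without Cur/Pip and in no other, 1 locus was listed, past RUSC1-AS1 (chr1:155307830-155308556, same strand). It was at 5.75 and 5.51 FPM in HepG2 and 4.15 and 27.8 in the Hep3B-labelled libraries (control, NaB). It also lay in the 10 kb before another gene's start. NMD3, which encodes a ribosome export adaptor, and a lncRNA gene, ENSG00000286669, had the 2 loci listed in both controls alone, at 0.541 and 0.642 for NMD3.

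In the 4 HepG2 libraries and no other, 22 loci were listed (0.685%, beside 0.759% of single-exon loci of all classes), and in the 4 labelled Hep3B and no other, 18 (0.560%, beside 0.660%), so neither share was above that of all classes. The strongest of the first were past TAT-AS1 (15.1, 15.8, 41.5 and 29.6 FPM), LINC02313 (2.13, 3.01, 11.0 and 12.3) and the lncRNA gene ENSG00000254290. LINC02313 itself was at 12.7, 13.9, 58.1 and 42.1 FPKM in these libraries and listed at 0 in the others, so gene and downstream locus were both higher in the 2 libraries with Cur/Pip than in the 2 without. The strongest of the second were past ENSG00000228079, CEP126, a centrosomal protein gene, and ENSG00000262921. The last of these covered TXNP4, an annotated processed pseudogene, where reads may also be shared. The CEP126 locus was on the opposite strand, at 2.05, 7.94, 3.06 and 4.35.

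The genes with most downstream transcripts over the 8 libraries were POLR2J3 (19), AMPD3 (18), RGP1 (18), EED (17) and CPLANE1 (16). Of these transcripts all lay on the strand of the gene except 17 of the 18 past AMPD3. POLR2J3 belongs to a family of near-identical RNA polymerase II subunit genes, so its reads are uncertain. EED is a core subunit of the Polycomb repressive complex PRC2, and its downstream locus, which also covers an annotated processed pseudogene, was listed in all 8 libraries at 0.817 to 2.77 FPM. Past AMPD3, the locus chr11:10508699-10509852 was at 2.77, 26.6, 18.5 and 377 FPM in HepG2 and at 0, 11.2, 11.9 and 136 in the Hep3B-labelled libraries, the highest mean of all downstream loci. Of its 25-base words, 46.7% also occur in the mitochondrial genome, and no other downstream locus but its neighbour past the same gene (31.9%) shared any, and whether reads of mitochondrial RNA were counted there was not tested.

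Level changes shared by both lines were asked of each locus with limma on log2(FPM + 0.1), over the 11051 single-exon loci of all classes found in at least 2 libraries, with 3 residual degrees of freedom. No downstream locus passed a Benjamini-Hochberg adjusted p of 0.05, of 1254 tested, after NaB, Cur/Pip or the combination treatment, and 0% of all loci did. At an unadjusted p under 0.05 there were 38 after NaB (29 higher), 79 after Cur/Pip (69 higher) and 159 after the combination treatment (148 higher), which is 3.03, 6.30 and 12.7% of the downstream loci beside 3.73, 6.99 and 10.6% of all loci. In simulated data with a spread of 0.842 on the log2 scale, set below the median of the data, 200 loci were changed in the combination libraries. The fit recovered 0 of them at a log2 change of 1.5, 77 at 3 and 200 at 6. The lack of calls therefore does not show that levels stayed the same. With loci found in at least 1 library the same fit called 1, 2 and 3 of 3214 downstream loci, beside 38, 52 and 78 of 29380 loci of all classes. Among these downstream loci were that past F2R after Cur/Pip and that past AMPD3 after the combination treatment. Neither was called in the main fit. The loci added by this setting were each listed in 1 library and enter the shared estimate of the spread. These calls therefore depend on the filter and are not taken as changes.

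Within a line, a log2 change over 1.5 in level was counted with no test, over loci listed in the treated library, its control or both. In HepG2, 543 of 925 downstream loci were higher after NaB (58.7%, beside 53.7% of single-exon loci of all classes), 973 of 1366 after Cur/Pip (71.2%, beside 73.8%) and 899 of 1280 after the combination treatment (70.2%, beside 71.2%). In the Hep3B-labelled libraries, 300 of 638 (47.0%, beside 49.8%), 451 of 782 (57.7%, beside 56.9%) and 936 of 1274 (73.5%, beside 67.8%) were. Lower were 211, 250 and 242 loci in HepG2 (22.8, 18.3 and 18.9%, beside 25%, 16.3% and 18.3% of all) and 202, 170 and 194 in the Hep3B-labelled libraries (31.7, 21.7 and 15.2%, beside 29.6%, 21.7% and 18.2%). The shares of downstream loci were thus near those of all single-exon loci in each comparison. With a pseudocount of 1 in place of 0.1 they were below them, at 4.22, 7.17 and 7.66% higher in HepG2 beside 8.98, 14.4 and 15.5% of all, and 7.68, 9.08 and 7.06% in the Hep3B-labelled libraries beside 11.5, 13.0 and 11.9%. With 0.1, nearly all of the calls were loci listed in 1 library of the pair: of those listed in both, at most 203 in a comparison, 14 to 30 were higher and 2 to 14 lower. Their median log2 changes in HepG2 were 0.41, 0.21 and 0.46, beside 0.34, 0.24 and 0.43 for loci of all classes listed in both. In the Hep3B-labelled libraries they were 0.17, 0.38 and 0.28, beside 0.11, 0.21 and 0.13.

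The genes of the 3' end machinery, which cut, polyadenylate and terminate transcripts, were taken as the pathway. All 37 listed genes of the cleavage and polyadenylation factors, the exonuclease XRN2, the anti-terminators SCAF4 and SCAF8 and the Integrator complex were measured. By limma on log2(FPKM + 1) over 15427 genes with Benjamini-Hochberg adjustment, 0 of the 37 passed an adjusted p of 0.05 in any of the 3 comparisons, beside 0%, 0.0259% and 0.0713% of all genes after NaB, Cur/Pip and the combination treatment. At an unadjusted p under 0.05 there were 1, 0 and 7 (2.70, 0 and 18.9%), beside 4.71, 5.92 and 10.7% of all genes. Over the 34 to 36 listed genes with a value in both libraries, the list's median log2 change in HepG2 was 0.09, 0.04 and -0.21 after NaB, Cur/Pip, and the combination treatment, beside 0.01, -0.02 and -0.02 over all such genes. In the Hep3B-labelled libraries it was -0.09, -0.06 and -0.24, beside -0.16, -0.02 and -0.09. RBBP6, PCF11 and SSU72, 3 cleavage and polyadenylation factors named after their values were seen, had combination values of 1.17, 1.10 and -0.99 over both lines (limma adjusted p of 0.416, 0.448 and 0.416).

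Values past a log2 change of 1.5 in 1 line were few, at most 1 higher and 2 lower in a comparison. WDR33, the subunit that binds the AAUAAA signal, had log2 changes of -1.90 after NaB and -1.72 after the combination treatment in HepG2, with 52.4 FPKM in the control against 13.3 and 15.2 FPKM, and of -0.27 and -0.31 in the Hep3B-labelled libraries. CSTF3, a cleavage stimulation factor subunit, had log2 changes of -1.77 and -1.92 in the same comparisons of the Hep3B-labelled libraries, with 41.9 FPKM in the control against 11.5 and 10.3 FPKM, and of -0.13 and -0.52 in HepG2. PABPN1, the nuclear poly(A)-binding protein, had a log2 change of 2.05 in HepG2 after the combination treatment (70.3 against 295 FPKM) and of -2.62 in the Hep3B-labelled library after Cur/Pip (110 against 17.0 FPKM). CPSF4, SCAF4, INTS2 and INTS11 passed the fold through libraries where they were listed at 0. No gene of the list passed the fold in the same direction in both lines.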

How the data were processed

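RNA-seq libraries of HepG2 cells and of cells labelled Hep3B were prepared with a directional kit and sequenced as paired reads of 150 bases. Per the labels and the methods, STAR was used by the authors for mapping to GRCh38, and each library was then assembled with Cufflinks. FastQC and Cuffdiff are also among the tools in the submitters' processing notes. Tool versions: not given in the sources used here. RNA was isolated in triplicate, and whether the replicates were pooled is not stated. The deposited values are FPKM and coverage of each assembled transcript, as text beside its exons, and no other unit was used. Coordinates fell inside the chromosomes of the GRCh38 reference used, with GENCODE release 44.

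Downstream transcripts were classed with 1-base overlaps, merged over libraries into loci on either strand, and given to the nearest 3' end. Gene FPKM was summed from same-strand transcripts with at least 50% of their exonic bases in it. The level of a locus is FPKM times length in kb (FPM). Fragments per library were estimated from coverage over transcripts of at least 300 nt. FPKM is no count, so no count test was run. Tests were exact permutations within lines and limma 3.58.1 (R 4.3.3) with the line as a term, adjusted over all loci or genes and tested on simulated data. The 2 lines served as the only replicates of a treatment. Python 3.11.15, numpy, pandas and scipy 1.17.1 were used. Loci were named by a rule: the 5 highest by mean level in all 8 libraries and among those listed with an agent or treatment alone, the 3 highest per line, the 5 genes with most downstream transcripts, and up to 5 genes of each list, and any other name is given as chosen later. The members, lists and rule were chosen with earlier results of these data known. A few items, 1 gene of the stress list among them, are not reported here. The reference is not repeat-masked, so repeat shares were not computed. Other settings are given under the dependence on processing.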

Additional observations from a re-analysis of the deposited data

Results flagged for a closer look

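There is 1 library per condition, so no group holds samples to compare with each other. The differences below moved in opposite directions in the lines, and the difference between the lines was not tested. The share of downstream transcripts among single-exon transcripts changed after NaB by 1.08 percentage points in HepG2 and by -1.05 in the Hep3B-labelled libraries. It changed after Cur/Pip by -1.14 and 0.06 points, and after the combination treatment by -0.62 and 2.4 points. Only for the change of 2.4 points did the intervals of the treated library and its control not overlap. The share of downstream transcripts on the strand of the upstream gene changed after NaB by 0.35 and -6.29 points. The share of assembled genes with a transcript running over 1 kb past their end changed after NaB by 0.443 and -0.374 points, and after Cur/Pip by -0.294 and 0.302 points.

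Spliced transcripts in the same gene-free sequence, which the selection leaves out, were above the control in 5 treated libraries. HepG2 held 77 in the control, 97 after NaB, 109 after Cur/Pip and 115 after the combination treatment. The Hep3B-labelled libraries held 63 in the control, 75 after Cur/Pip and 112 after the combination treatment, and 57 after NaB.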

How the results depend on the processing

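Of 208 repeats of 44 values under other settings, 170 kept their direction and their side of the test's threshold or, where no test applied, stayed within 1.5-fold for counts of loci or genes or within counting error for ratios of transcript numbers, 32 moved further and 6 changed direction. The permutation tests within lines cannot give a p under 0.05, so for their repeats only a change of direction could be seen. The log2 difference in number with Cur/Pip present kept its sign under every setting tried (main 1.01), from 0.816 to 1.2 with each library left out, and that with NaB ranged from 0.0769 to 0.776. Without the replicate block of the line, labels permuted over all 8 libraries, the differences of 1.01 (exact permutation p = 0.0571), 0.427 (exact permutation p = 0.343) and, for the share, 0.167 points (exact permutation p = 0.857) kept their side, and limma without the line called 0 loci in each comparison. The lines share no culture or replicate number, so no other pairing was possible. The share with Cur/Pip turned to -0.28 points with a window of 5 kb, -0.289 without transcripts also before a gene's start and -0.446 with same-strand transcripts alone, the last chosen after seeing the data, and was 1.18 at an FPKM of at least 1 (exact permutation p = 0.167) and 0.829 at no fewer than 20 fragments. With each library left out it ranged from -0.418 to 0.752, and it was negative without the HepG2 control (-0.103), without the NaB library labelled Hep3B (-0.0952) and without the combination library labelled Hep3B (-0.418). The cause was not tested.

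The log2 ratio of number to control with only transcripts at an FPKM of 1 or more was 1.16, 2.48 and 2.3 in HepG2 and 0.928, 1.69 and 2.11 in the Hep3B-labelled libraries (NaB, Cur/Pip, combination). With at least 20 fragments at the shallowest depth it was 1.63 and 1.84 in HepG2 with Cur/Pip and with the combination and 1.2 in the Hep3B-labelled library with Cur/Pip. Without transcripts also before a gene's start it was 1.18 and 1.11 in HepG2 with Cur/Pip and with the combination and 1.41 in the combination labelled Hep3B. It was 1.24 in HepG2 with Cur/Pip in a window of 5 kb, 1.65 in the HepG2 combination divided by depth, and 1.37 in the combination labelled Hep3B with same-strand transcripts.

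By limma, loci found in at least 1 library gave 1, 2 and 3 calls after NaB, Cur/Pip and the combination (past ZNF398; F2R and ERICD; AMPD3 and IER2 among the 3), a pseudocount of 1 gave 1 after the combination (AMPD3), and additive effects of the agents gave 1 with Cur/Pip (RUSC1-AS1, lower). These genes were named after their values were seen. The loci past ZNF398 and IER2 each covered an annotated pseudogene, and that past AMPD3 shared sequence with the mitochondrial genome, as given above. Over single-exon loci of all classes, loci found in at least 1 library gave 38, 52 and 78 calls of 29380. The pseudocount of 1 gave 4 of 11051 after the combination, and additive effects gave 7 of 11051 with Cur/Pip. With each library left out there were 0 to 0 calls; where 1 library of a treatment remained, it was assumed to vary like the others. With a pseudocount of 1 the loci past the fold were 39, 98 and 98 higher and 17, 13 and 14 lower in HepG2. In the Hep3B-labelled libraries they were 49, 71 and 90 higher and 6, 6 and 7 lower. An unlisted locus then lies closer to a faint one. The lower shares were 1.84, 0.952 and 1.09% in HepG2, beside 4.77, 2.91 and 3.39% of single-exon loci of all classes. They were 0.94, 0.767 and 0.549% in the Hep3B-labelled libraries, beside 4.99, 3.94 and 3.29%. The higher shares, given above, were also below those of all classes. About 20 fragments stood behind a typical transcript, which limits what an unlisted locus can show.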
